A study of Homo sapiens with 6 samples.

Results

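The genes described here encode regulators of the poly(A) tail of messenger RNA: the translation regulators CPEB2, CPEB3 and CPEB4 and the deadenylase genes CNOT1, CNOT6, CNOT6L, CNOT7, PAN2, PAN3 and PARN. They were chosen by gene name, and all 10 were present among the 14034 rows of the count table and passed the filter on low counts. RNA-seq was measured in JHH-4, an established epithelial-like line from a human hepatocellular carcinoma grown in EMEM with serum. The 3 miR-885-5p libraries came from cells that overexpressed this microRNA from a plasmid carrying its primary transcript, and the 3 control libraries came from cells labelled wild type. The labels do not say what the control cells were given, and plasmid delivery and the microRNA cannot be told apart. The submitters describe the 3 libraries of a group as technical replicates, so p-values here reflect the spread of technical libraries and not of separate cultures.

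A poly(A) tail protects a messenger RNA and promotes its translation through poly(A)-binding protein. CPEB proteins bind U-rich elements in 3′ untranslated regions (UTRs), called cytoplasmic polyadenylation elements, and hold back or switch on translation of the bound messenger by recruiting deadenylases or poly(A) polymerases. The PAN2-PAN3 complex and the CCR4-NOT complex shorten the tails of most cytoplasmic messengers, and both are recruited by the TNRC6 proteins that work with Argonaute in microRNA silencing. PARN is a separate poly(A) nuclease that also trims the ends of several classes of non-coding RNA. In liver, CPEB4 is known from work in mice as part of the response to stress of the endoplasmic reticulum.

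The mature miR-885-5p has its seed, bases 2 to 8, shown in capitals in the RefSeq sequence, and lies on the minus strand at chr3:10394531-10394552 (GRCh38.p14). CPEB2, CPEB3, CPEB4 and CNOT6 hold the 7-base complement of that seed, GTAATGG, in the longest 3′ UTR that GENCODE 29 annotates on a protein-coding transcript. The sequences below show that match in capitals, with an A opposite the first base of the microRNA included where it makes an 8mer, on the sense strand with up to 30 bases in all.
hsa-miR-885-5p: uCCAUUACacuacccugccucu
CPEB2 8mer: gtactggtaatttaactctGTAATGGAata
CPEB3 8mer: atgtaaagtgattggaaatGTAATGGAtaa
CPEB3 7mer: cacatttttaagaaagttgtGTAATGGtga
CPEB4 7mer: tcatttcataaccccttttgGTAATGGgtg
CNOT6 first 7mer: tagacatttatggactgaatGTAATGGttg
CNOT6 second 7mer: ttggggcagcatattaagatGTAATGGcct

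The matched bases of CPEB2 are at chr4:15070057-15070064 on the plus strand of GRCh38, near the end of a UTR of 3773 bases, and are present in 5 of 8 coding transcripts with a UTR. Those of CPEB3 are at chr10:92048673-92048680 for the 8mer and chr10:92050739-92050745 for the 7mer, both on the minus strand. The CPEB4 match, at chr5:173961663-173961669 on the plus strand, is in 1 of 6 transcripts, whereas both CNOT6 matches, at chr5:180575013-180575019 and chr5:180576512-180576518 on the plus strand, are in 3 of 3. Of 12304 tested genes with a UTR, 8.01% hold GTAATGG and 2.54% hold the 8mer GTAATGGA. The UTRs of these 4 genes are long, from 3773 to 5839 bases, against a median of 1390 bases over all genes. The longest UTRs of CNOT1, PAN2 and PARN held none of the 6-base core TAATGG, which 30.4% of genes hold, and those of CNOT6L and PAN3 held the core alone. That of CNOT7 held 3 of the core, 1 of them as the 7-base TAATGGA, which 13.1% of genes hold. CPEB3, CPEB4 and CNOT6 also held a TAATGGA outside the matches shown. Over all transcript types the longest UTR of CNOT1, of 1098 bases on a transcript of the nonsense-mediated decay type, held 1 8mer.

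The cytoplasmic polyadenylation elements TTTTAT and, with 1 base more, TTTTAAT were searched on the sense strand of the same UTRs. CPEB2 held 18 and 7 of them, CPEB4 15 and 10, and CPEB3 14 and 1. CNOT6L held 13 and 7, CNOT7 16 and 1, PAN3 6 of each, CNOT6 6 and 2, and CNOT1 and PARN 1 of each, while PAN2 held 1 of the shorter and none of the longer element. The shorter element, TTTTAT, is found in 63.1% of all UTRs and the longer one in 40.2%. Both were counted wherever they start, and neither string contains the other or a seed match. Per 1000 bases of UTR, CPEB2 had 6.63 matches, the highest density among the 10 genes. CPEB4 followed at 4.28 and PAN3 at 4.27, and PAN2 was lowest at 0.722. The density over all genes was not computed.

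**Figure D1:**
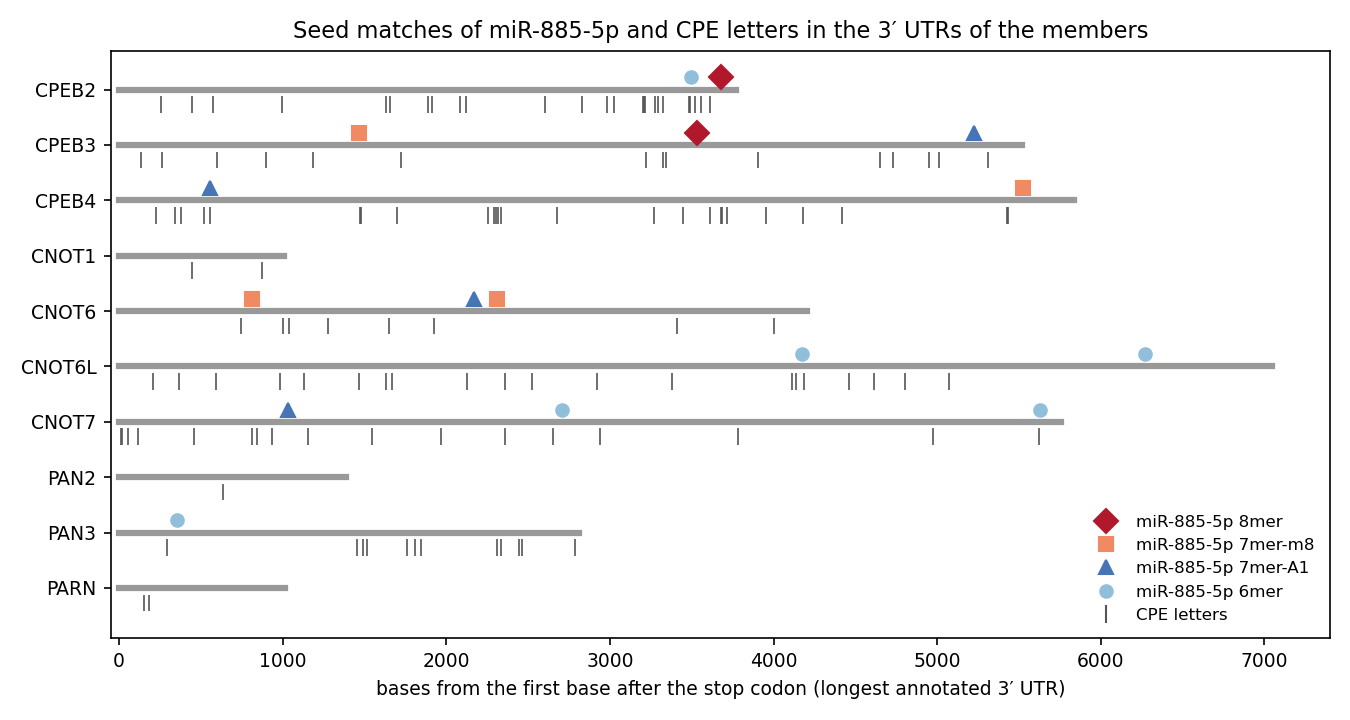
Longest 3′ UTR annotated on a protein-coding transcript of each gene, drawn to scale in bases from the stop codon. Seed matches of miR-885-5p are shown by type above the line and TTTTAT or TTTTAAT matches as ticks below it. CPEB2, CPEB3, CPEB4 and CNOT6 hold a 7mer-m8 or 8mer match. The UTRs drawn for CNOT1, PAN2 and PARN, of 1007, 1386 and 1016 bases, hold no seed match of any type.

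Among the 10 genes, CPEB2, CPEB4, PAN2 and PAN3 rose with miR-885-5p, CNOT1 and CNOT6 fell, and CPEB3, CNOT6L, CNOT7 and PARN did not pass the test. Thus 4 were higher and 2 lower by edgeR's quasi-likelihood test at a Benjamini-Hochberg adjusted p under 0.05. Over all genes 26.3% were higher and 26.5% lower by the same rule, 52.9% together, so the count of 6 called among 10 is near the background. The median log2 fold change, miR-885-5p over control, was 0.17 over the 10 genes and 0.00 (-6.11e-04) over all 14034. In bulk RNA, a different level per cell and a different share of expressing cells cannot be told apart. Each called difference was below 1.5-fold. A test against a 1.5-fold change called 0 of the 10, and 0 had an unadjusted p under 0.05 in it.

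Total counts ran from 46382314 to 56409821 per library, and the chi-square per degree of freedom between 2 libraries was 7.95 to 40.5 within groups and 96.0 to 136 across them, above sampling noise in each case. Of 5 epithelial markers, KRT8, KRT18 and KRT19 were measured, with summed levels of 2811 to 2907 CPM (counts scaled by library size with TMM factors) in miR-885-5p libraries and 3342 to 3440 CPM in control libraries. The other epithelial markers, CDH1 and EPCAM, were not analysed here. Of 7 hepatocyte markers 1 was in the table, SERPINA1, at 7.05 to 9.73 CPM with miR-885-5p and 8.16 to 9.42 CPM in control; ALB, APOB, HNF4A, AFP, TTR and APOA1 were not analysed here. Among markers of other cells, 2 of 4 fibroblast genes summed to 23.5 to 23.9 CPM in miR-885-5p libraries and 12.7 to 15.2 CPM in control libraries, and 2 of 3 endothelial genes to 2.50 to 2.78 CPM with miR-885-5p and 1.42 to 2.08 CPM in control. Of the fibroblast genes PDGFRB averaged 18.4 CPM with miR-885-5p and 8.96 CPM in control, and COL1A1 5.34 CPM with miR-885-5p and 4.78 CPM in control. Of the endothelial genes PECAM1 averaged 1.51 CPM with miR-885-5p and 0.719 CPM in control, and KDR 1.13 CPM with miR-885-5p and 1.08 CPM in control. The 1 leukocyte gene of 3 in the table, CD68, had 125 to 128 CPM with miR-885-5p and 116 to 138 CPM in control. Their part in the results was not tested. The level of the microRNA itself was not analysed here.

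CPEB2 (ENSG00000137449, chr4:15002674-15070153 on the plus strand of GRCh38), which represses translation of bound messengers and has been named as a target of this microRNA in earlier literature, was higher with miR-885-5p. It had 44.8, 43.3 and 39.8 CPM in miR-885-5p libraries 1 to 3, against 27.4, 29.5 and 31.0 CPM in control libraries 1 to 3. The groups did not overlap, which held in this direction for 30.2% of all genes and in either direction for 60.5%. The mean was 42.6 ± 2.58 CPM with miR-885-5p and 29.3 ± 1.84 CPM in control (SD, n = 3 each), a log2 fold change of 0.54 (SE 0.07, edgeR adjusted p = 1.04e-04). Of all genes, 9.93% had a larger log2 fold change. The authors' deposited table gives CPEB2 a p-value of 9.63e-13, from a test that is not named and with no adjustment stated. The deposited log2 fold change, 0.541214, was the value that DESeq2 gave here.

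CPEB4 (ENSG00000113742, chr5:173888280-173961976, plus strand), a paralogue of CPEB2, was also higher. Its levels were 67.0, 61.9 and 67.6 CPM in miR-885-5p libraries and 52.4, 50.3 and 51.4 CPM in control libraries, with no overlap. The means were 65.5 ± 3.14 and 51.3 ± 1.08 CPM (miR-885-5p and control, SD, n = 3 each) and the log2 fold change was 0.35 (SE 0.05, edgeR adjusted p = 2.61e-04). On the deposited FPKM, which are levels per kilobase of transcript, CPEB4 had 9.05, 6.63 and 7.22 with miR-885-5p and 6.05, 6.14 and 6.04 in control. The first miR-885-5p library stands above the other two on that scale, and limma on log2(FPKM + 0.1) gave a log2 fold change of 0.31 with adjusted p = 0.0512. The genes beside CPEB4 on chromosome 5 mostly went the other way. Among its 50 nearest tested neighbours 5 were higher and 30 lower, with a median log2 fold change of -0.24. Over all genes 26.3% were higher and 26.5% lower.

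CPEB3 (ENSG00000107864, chr10:92046692-92291087, minus strand), known in neurons as a repressor of synaptic messengers, was close to the limit of the table. It had 75, 88 and 92 counts in miR-885-5p libraries and 63, 80 and 60 counts in control libraries. These are 1.59, 1.53 and 1.76 CPM with miR-885-5p and 1.32, 1.70 and 1.22 CPM in control, and the groups overlapped. The log2 fold change was 0.20 with a 95% interval from -0.27 to 0.68 (edgeR adjusted p = 0.451), so a difference as large as that of CPEB2 was within the interval. CPEB1, the founding member of the family and not one of the 10 genes, was also at a low level and rose, with 4.06 ± 0.455 CPM in miR-885-5p libraries and 2.41 ± 0.268 CPM in control libraries (SD, n = 3 each; log2 fold change 0.75, SE 0.17, edgeR adjusted p = 0.00421).

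Within a library, the log2 ratio of CPEB2 over CPEB4 averaged -0.62 ± 0.13 with miR-885-5p and -0.81 ± 0.11 in control (SD, n = 3 each), a difference of 0.19. An exact two-sided permutation test gave p = 0.2, and the smallest p that 3 against 3 libraries allow is 0.1. For CPEB3 over CPEB4 the means were -5.33 ± 0.07 with miR-885-5p and -5.20 ± 0.27 in control (SD, n = 3 each; difference -0.14, exact permutation p = 0.7). That difference was 0.02 on FPKM and 0.02 without control library 2. Over 5 such pairs of genes the adjusted exact p-values ran from 0.5 to 1, and with so few libraries no pair could have passed 0.05.

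**Figure D2:**
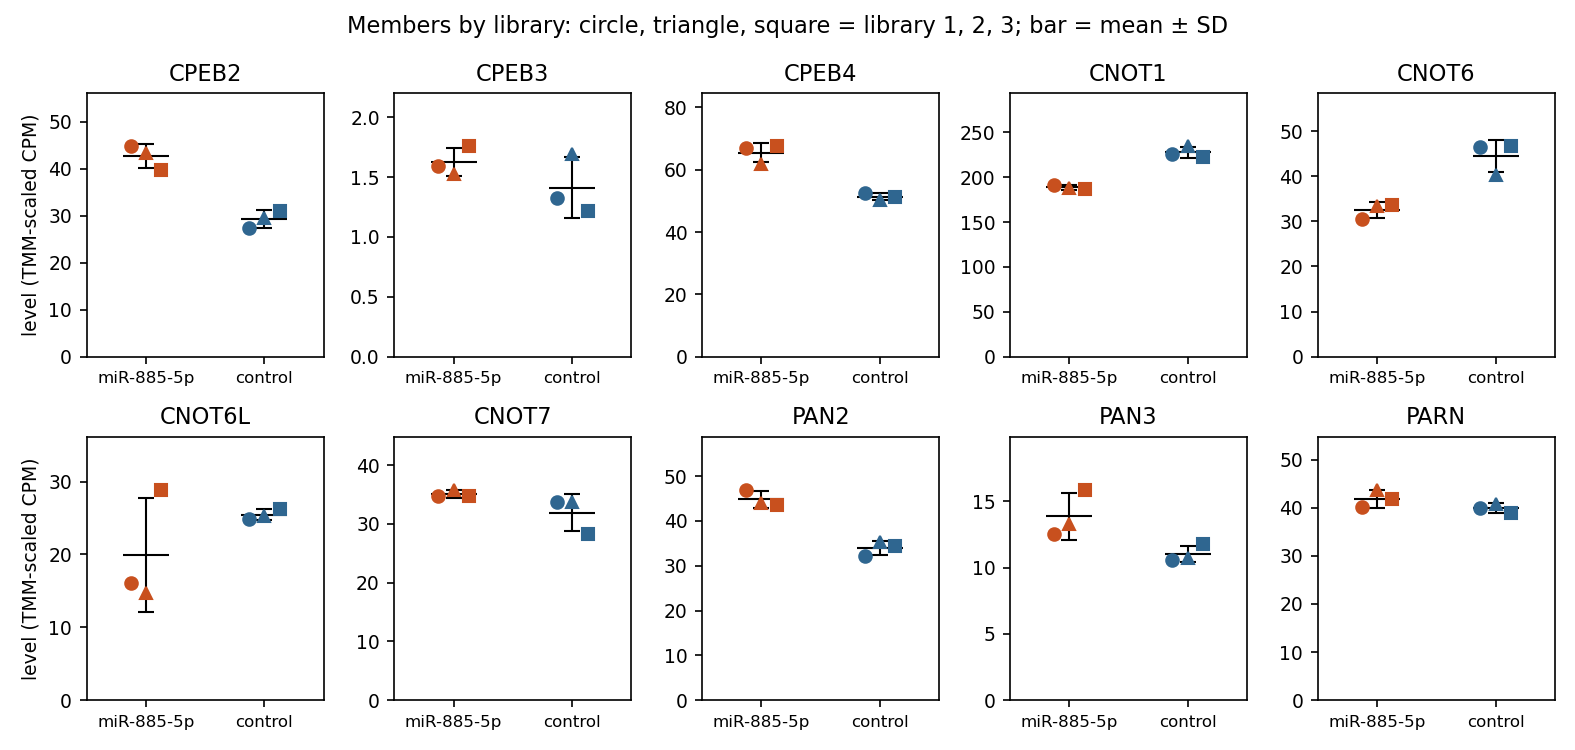
Level of each gene in TMM-scaled CPM in every library, miR-885-5p on the left and control on the right of each panel, with the mean ± SD of 3 libraries; each panel has its own axis from 0. CPEB2, CPEB4, PAN2, PAN3 and CNOT7 lie higher and CNOT1 and CNOT6 lower with miR-885-5p without overlap, although CNOT7 was not called. Over all genes, 60.5% did not overlap in either direction. The third miR-885-5p library of CNOT6L, at 28.9 CPM, lies far above the other 2.

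Both genes of the PAN2-PAN3 deadenylase were higher with miR-885-5p. PAN2 (ENSG00000135473, chr12:56316223-56334053, minus strand), the catalytic subunit, had 47.0, 44.0 and 43.4 CPM in miR-885-5p libraries and 32.2, 35.3 and 34.3 CPM in control libraries. Every miR-885-5p value lay above every control value, and the log2 fold change was 0.40 (SE 0.06, edgeR adjusted p = 2.71e-04). PAN2 shares exon bases on the same strand with CNPY2, which had a log2 fold change of -0.11 and was not called, except without control library 2 (-0.14, adjusted p = 0.0420).

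PAN3 (ENSG00000152520, chr13:28138506-28295335, plus strand), the subunit that binds poly(A) and brings PAN2 to the messenger, was less abundant. It had 12.5, 13.3 and 15.9 CPM with miR-885-5p and 10.6, 10.7 and 11.8 CPM in control. The groups did not overlap, although the lowest miR-885-5p and highest control libraries were close. The log2 fold change was 0.33 (SE 0.10, edgeR adjusted p = 0.0200). The call was lost without miR-885-5p library 3, the highest of the 6 (log2 fold change 0.23, adjusted p = 0.0800), and without control library 1 (0.30, adjusted p = 0.0659). The log2 ratio of PAN3 over PAN2 within a library averaged -1.70 ± 0.23 with miR-885-5p and -1.62 ± 0.09 in control (SD, n = 3 each; difference -0.08, exact permutation p = 0.6). Without miR-885-5p library 1 that difference was 0.03.

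Of the CCR4-NOT genes among the 10, the scaffold CNOT1 and the catalytic gene CNOT6 were called lower with miR-885-5p. CNOT1 (ENSG00000125107, chr16:58519951-58629886, minus strand), the scaffold on which the other subunits assemble, had 192, 188 and 187 CPM in miR-885-5p libraries and 226, 235 and 223 CPM in control libraries. The groups were clearly apart, as were 30.3% of all genes in this direction, and the log2 fold change was -0.27 (SE 0.04, edgeR adjusted p = 1.68e-04). CNOT1 shares exon bases with SETD6 on the opposite strand, which had a log2 fold change of 0.23, a call that ended with limma-voom and without control library 1 or 3 or miR-885-5p library 1 or 2 (adjusted p from 0.0518 to 0.163). Neighbours of CNOT1 on chromosome 16 had a median log2 fold change of 0.17. Of these 50, 22 were higher and 10 lower, against 26.3% and 26.5% of all genes. Among the nearest 20 the median was 0.10, with 8 higher and 7 lower.

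CNOT6 (ENSG00000113300, chr5:180494412-180578405, plus strand), a catalytic subunit of the exonuclease-endonuclease-phosphatase family, had 30.4, 33.5 and 33.7 CPM with miR-885-5p and 46.5, 40.3 and 46.7 CPM in control. No library of one group reached the range of the other. The log2 fold change was -0.45 (SE 0.07, edgeR adjusted p = 5.22e-04), and 11.4% of all genes had a lower value. Of its 50 nearest neighbours at the end of chromosome 5, 27 were lower and 7 higher, against 26.5% and 26.3% of all genes. Their median log2 fold change was -0.17. Of the nearest 20, 8 were lower and 3 higher, with a median of -0.09. CPEB4 and CNOT6 lie on the same chromosome arm and were called in opposite directions. CPEB4 holds 1 GTAATGG match, in 1 of 6 coding transcripts with a UTR, and CNOT6 holds 2, each in 3 of 3. Whether position or seed match bears on their levels was not tested.

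CNOT6L (ENSG00000138767, chr4:77713387-77819615, minus strand), the paralogue of CNOT6 with the same enzymatic role, gave values that depended on the library and on the unit. It had 16.04, 14.7 and 28.9 CPM in miR-885-5p libraries and 24.9, 25.3 and 26.3 CPM in control libraries. The first and second miR-885-5p libraries were below all control libraries and the third was above them. The log2 fold change was -0.36 with a 95% interval from -0.83 to 0.11 (edgeR adjusted p = 0.178). Without miR-885-5p library 3 it was -0.73 with adjusted p = 1.08e-04, without miR-885-5p library 1 it was -0.22 (adjusted p = 0.447) and without miR-885-5p library 2 it was -0.18 (adjusted p = 0.500). On the deposited FPKM the values were 4.61, 4.39 and 4.00 with miR-885-5p and 6.15, 3.64 and 3.15 in control, and limma on log2(FPKM + 0.1) gave a difference of 0.06 on the log2 scale.

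Dividing the CPM of a gene, here by total count, by its FPKM gives the transcript length, in kilobases, that joins the deposited values. For CNOT6L this length was 3.54, 3.42 and 7.32 kb in miR-885-5p libraries and 3.98, 6.76 and 8.28 kb in control libraries. The libraries with a short length were miR-885-5p libraries 1 and 2 and control library 1, so the split crossed the groups. The annotation gives CNOT6L coding transcripts of 8865, 8843, 4024 and 1890 bases, among others. For CNOT6 the same quantity was 6.83, 6.62 and 6.73 kb with miR-885-5p and 6.74, 6.77 and 6.76 kb in control. The highest over the lowest length was 2.42 for CNOT6L, against a median of 1.05 over 12161 genes with at least 100 counts in every library, of which 0.263% reached the ratio of CNOT6L. For CPEB4 it was 1.27, which 8.78% of those genes reached.

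**Figure D3:**
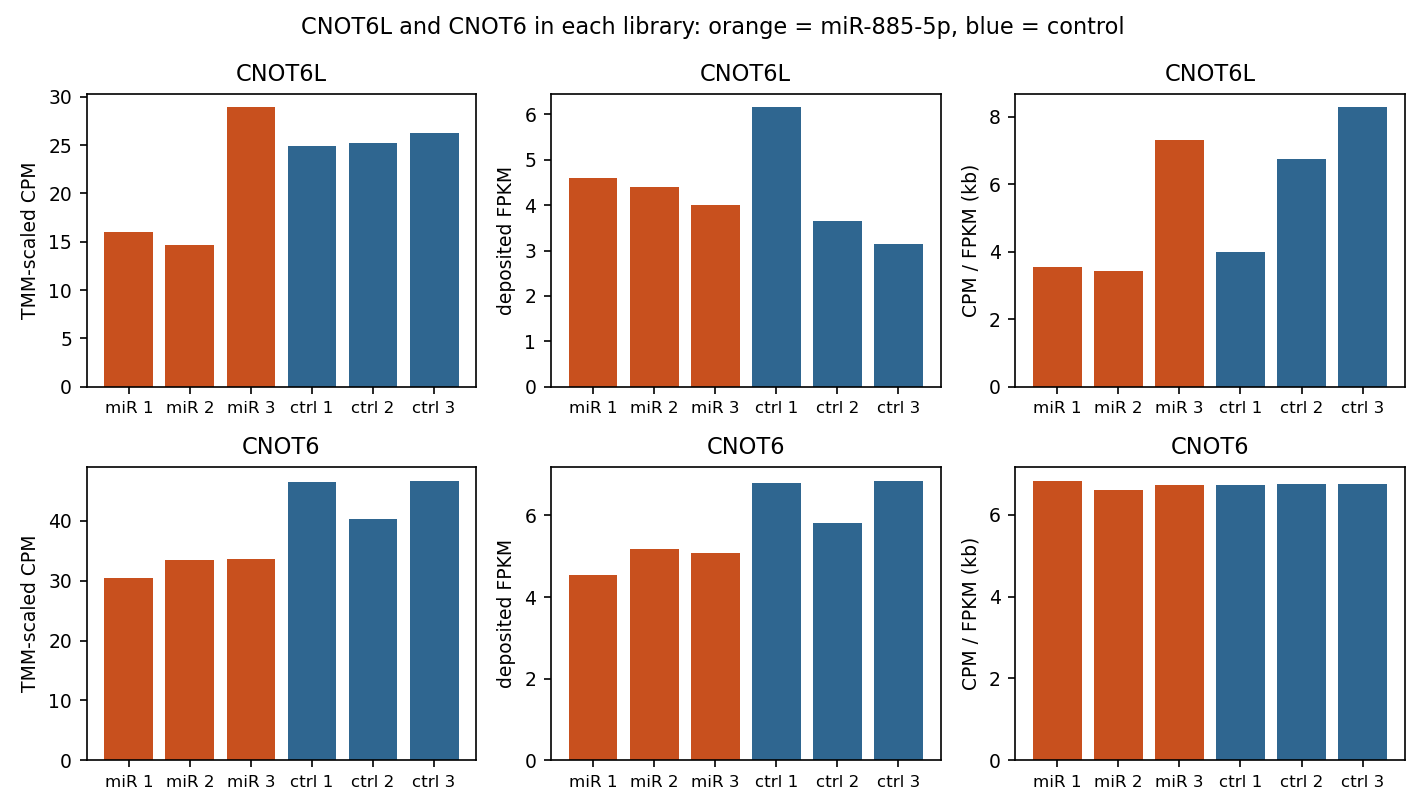
CNOT6L and CNOT6 in each of the 6 libraries as TMM-scaled CPM, as deposited FPKM and as the length in kb given by CPM over FPKM, with miR-885-5p libraries on the left and control libraries on the right. For CNOT6 the length stays between 6.62 and 6.83 kb, and for CNOT6L it is 3.42 to 3.98 kb in 3 libraries and 6.76 to 8.28 kb in the other 3.

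The log2 ratio of CNOT6L over CNOT6 averaged -0.78 ± 0.50 with miR-885-5p and -0.80 ± 0.12 in control (SD, n = 3 each; difference 0.02, exact permutation p = 1). It was 0.46 on FPKM, -0.25 without miR-885-5p library 3, 0.23 without miR-885-5p library 2 and -0.03 without control library 1. CNOT6L has 1 annotated pseudogene named after it, and the sources used here do not say how reads shared with such copies were counted.

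CNOT7 (ENSG00000198791, chromosome 8), the DEDD-family catalytic subunit that exchanges with CNOT8 in the complex, had 34.7, 35.8 and 34.7 CPM with miR-885-5p and 33.7, 33.6 and 28.2 CPM in control. The groups did not overlap, but control library 3 stood apart from the other control libraries. The log2 fold change was 0.14 with a 95% interval from -0.02 to 0.30 (edgeR adjusted p = 0.136). Without control library 3 it was 0.06 (adjusted p = 0.383). It passed the threshold with total-count scaling (0.19, adjusted p = 0.0477) and on FPKM with limma (0.23, adjusted p = 0.0320), which moved the median log2 fold change of all genes up by 0.05 and 0.06. CNOT8 was lower, at -0.20 (SE 0.06, edgeR adjusted p = 0.0167). Its call ended with total-count scaling (adjusted p = 0.0550), without control library 1 (0.0554), without miR-885-5p library 3 (0.0750) and on FPKM with limma, where the log2 fold change was -0.01. The log2 ratio of CNOT7 over CNOT8 was 0.23, 0.26 and 0.38 in miR-885-5p libraries and 0.01, 0.02 and -0.21 in control libraries, with no overlap. The difference was 0.35, and the exact permutation test gave p = 0.1, the smallest it can give, and 0.5 after adjustment over 5 pairs. CNOT7 shares exon bases with VPS37A on the opposite strand, and has 2 pseudogenes named after it. VPS37A had a log2 fold change of 0.25, a call that ended with limma-voom and without any 1 library except miR-885-5p library 2 (adjusted p from 0.0549 to 0.166).

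PARN (ENSG00000140694, chr16:14435701-14632728, minus strand) had 40.1, 43.7 and 41.7 CPM in miR-885-5p libraries and 40.0, 40.8 and 38.9 CPM in control libraries. The groups overlapped, and the log2 fold change was 0.07 with a 95% interval from -0.05 to 0.19 (edgeR adjusted p = 0.300). The interval, which covers the spread of technical libraries only, ends below the 0.40 of PAN2.

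**Figure D4:**
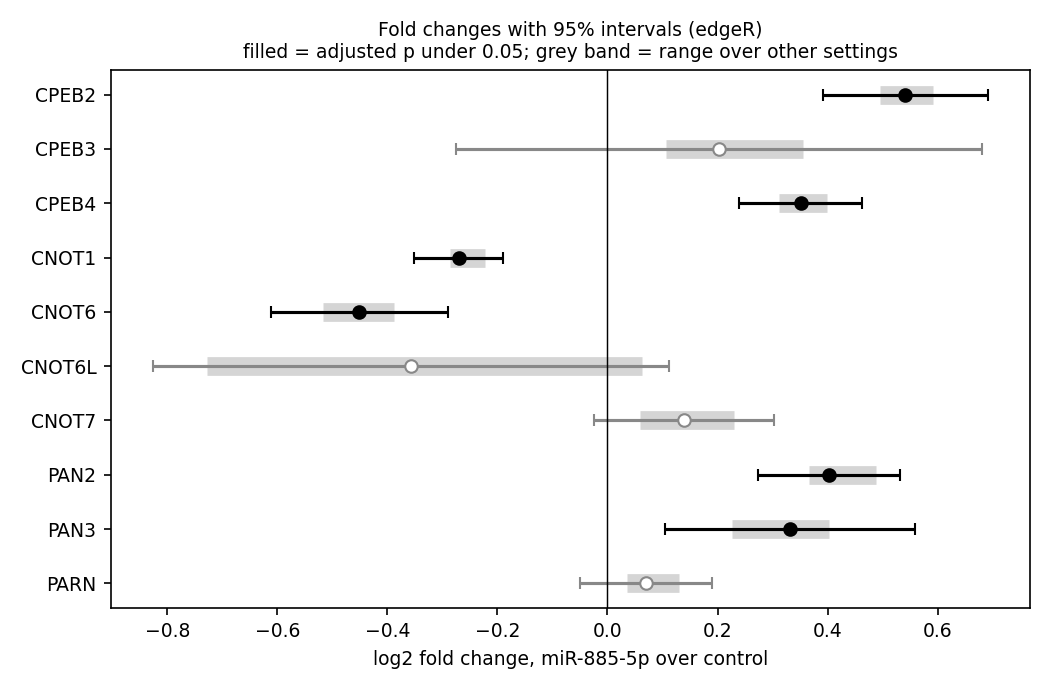
Log2 fold change of each gene, miR-885-5p over control, with its 95% interval from edgeR, filled where the adjusted p was under 0.05, over a grey band that spans the other settings tried. The band of CNOT6L runs from -0.73 to 0.06 and is the only one of the 10 that includes 0.

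Levels were compared between genes on the deposited FPKM. With miR-885-5p the order was CNOT1 at 23.3 ± 0.154, PARN at 13.2 ± 0.897, PAN2 at 9.14 ± 0.370, CPEB4 at 7.63 ± 1.26, CPEB2 at 7.08 ± 0.414, CNOT7 at 6.11 ± 0.132, CNOT6 at 4.92 ± 0.345, CNOT6L at 4.33 ± 0.308, PAN3 at 2.93 ± 0.313 and CPEB3 at 0.220 ± 0.0295 FPKM (SD, n = 3). In control it was CNOT1 at 27.8 ± 1.23, PARN at 12.001 ± 0.189, PAN2 at 6.49 ± 0.377, CNOT6 at 6.48 ± 0.580, CPEB4 at 6.07 ± 0.0538, CNOT7 at 5.20 ± 0.344, CPEB2 at 4.86 ± 0.289, CNOT6L at 4.31 ± 1.61, PAN3 at 2.23 ± 0.180 and CPEB3 at 0.174 ± 0.0197 FPKM (SD, n = 3). The ranges of PAN2 and CPEB4, of CPEB4 and CPEB2 and of CNOT6 and CNOT6L overlapped with miR-885-5p. In control those of PAN2, CNOT6 and CPEB4, of CNOT7 and CPEB2, and of CNOT6L with all 5 of these overlapped. CNOT1, PARN, PAN3 and CPEB3 kept places of their own in both groups, and CNOT6 was below CNOT7 with miR-885-5p and above it in control, without overlap in either group.

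Genes that act with these 10 were followed in 8 lists. Of the 67 other listed genes tested, 14 were higher and 26 lower, against 26.3% and 26.5% of all genes. In the CCR4-NOT complex, 1 of 7 further subunits was higher and 3 were lower (median log2 fold change -0.11). CNOT9, which contacts TNRC6 proteins, fell to 53.9 ± 1.72 CPM with miR-885-5p, against 82.5 ± 1.45 CPM in control (SD, n = 3 each; log2 fold change -0.61, SE 0.04, edgeR adjusted p = 3.15e-06). CNOT3 changed by -0.28 and CNOT11 by 0.16. Their calls were lost without control library 1 (adjusted p = 0.0553 and 0.0793), and also that of CNOT3 without miR-885-5p library 3 (adjusted p = 0.0509) and that of CNOT11 without miR-885-5p library 1 (adjusted p = 0.0651).

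Of 6 other deadenylase genes tested, which include CNOT8, 2 were higher and 3 lower (median -0.03). NOCT, a circadian gene first described as a deadenylase and since known to act on NADPH, changed by -1.05 and TOE1, a nuclear deadenylase of small RNAs, by -0.70, while ANGEL2 changed by 0.55 and ANGEL1 by 0.39. Among BTG and TOB genes, whose products bind CNOT7 and CNOT8, TOB1 rose by 0.63 and BTG1 by 0.41, and BTG3 and TOB2 changed by -0.27 and -0.15 (4 of 4 called, median 0.13). The call of TOB2 ended with total-count scaling (adjusted p = 0.0563), on FPKM with limma (0.177) and without miR-885-5p library 1 (0.0536).

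Of 6 genes of poly(A)-binding proteins and their partners 3 were higher and 2 lower (median 0.05), with PAIP2B at 0.80 and PAIP1 at 0.25 and with PABPC4 at -0.22 and PABPN1 at -0.13. The call of PABPN1 (edgeR adjusted p = 0.0417) ended under 9 of the other settings besides the 1.5-fold test, with adjusted p from 0.0542 to 0.162 there. Poly(A) polymerases and polyadenylation factors had 0 higher, 2 lower and 7 not called of 9 (median -0.02). The 2 were TENT5A at -0.74 and CPSF4 at -0.22, and the cytoplasmic poly(A) polymerase TENT2, a partner of CPEB proteins, had 0.02. Of 8 genes listed as CPEB1 and partners of CPEB proteins 1 was higher, CPEB1, and 4 were lower (median -0.14). Among the 4 were the kinase AURKA at -0.28, which phosphorylates CPEB1, and the helicase DDX6 at -0.22.

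Of 14 adaptors that bring deadenylases to messengers 2 were higher and 5 lower (median -0.01). SAMD4A changed by -0.74 and YTHDF2, a reader of N6-methyladenosine, by -0.26, and TNRC6C rose by 1.04. NANOS1 had 0.40 (edgeR adjusted p = 0.0380), a call that ended on FPKM with limma (adjusted p = 0.05003) and without control library 1 or any 1 miR-885-5p library (adjusted p from 0.0513 to 0.126). Of 14 decapping and 5′ to 3′ decay genes 3 were higher and 6 lower (median -0.16). DCP2, the decapping enzyme, changed by -0.60, the scavenger enzyme DCPS by -0.64 and DCP1B by 0.41. The exonuclease XRN1 had 0.18 (edgeR adjusted p = 0.0257), a call that ended on FPKM, under the replicate block and on leaving out control library 1, miR-885-5p library 2 or miR-885-5p library 3 (adjusted p from 0.0567 to 0.121).

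**Figure D5:**
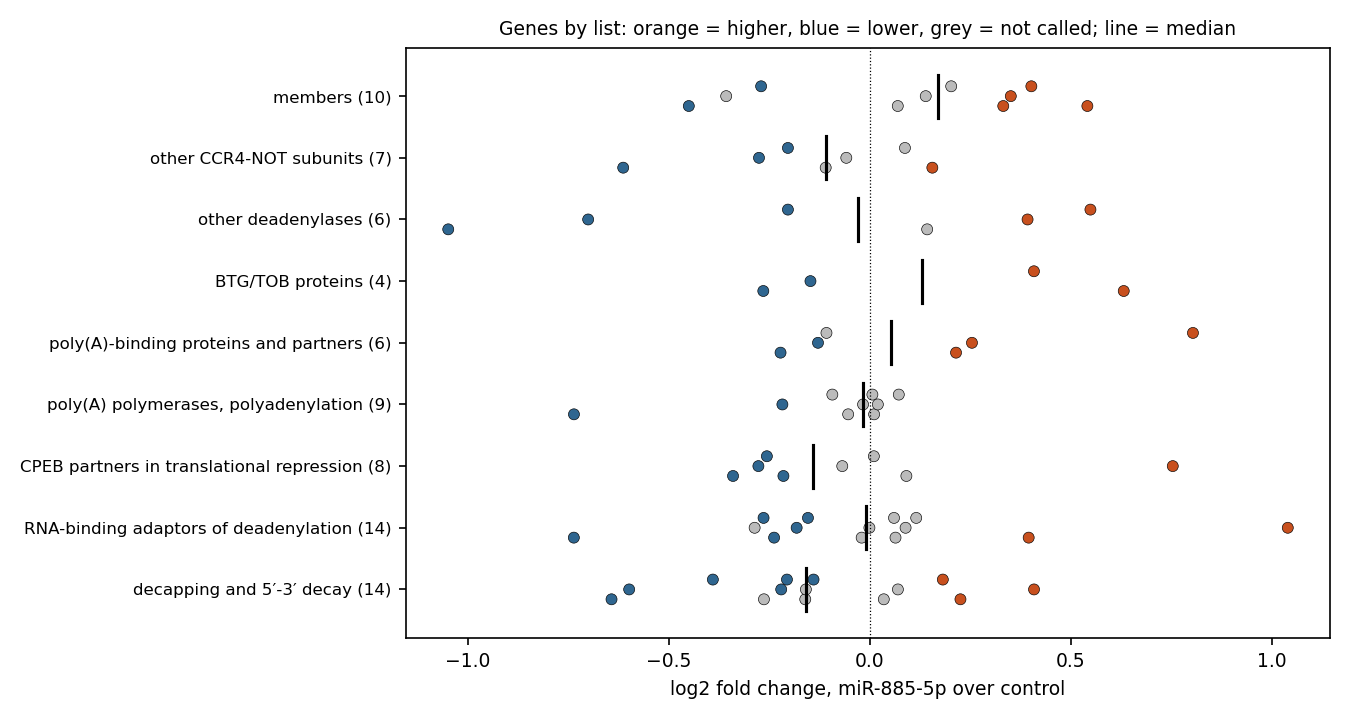
Log2 fold changes, miR-885-5p over control, of the 10 genes and of the genes in 8 related lists, with the number tested in brackets, the median as a line, and orange, blue and grey for higher, lower and not called. The 10 genes have a median of 0.17, and the 8 lists have medians between -0.16 and 0.13.

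Genes whose levels followed the CPEB genes most closely were found by the root mean square difference of log2 CPM, each centred on its mean over the 6 libraries, among named genes with a mean of at least 5 CPM. For CPEB2 they were MTX1 (0.0363) and CLDN12 (0.0384), for CPEB4 NME7 (0.0170) and SNX13 (0.0240), and for CPEB3 CAPN7 (0.0544) and TBCK (0.0551). The log2 fold changes of the first pair were 0.55 and 0.51, next to 0.54 for CPEB2. Being chosen on the same 6 libraries, they had to have like fold changes, so this likeness is no separate result.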

How the data were processed

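Gene counts of 6 JHH-4 libraries were deposited as unnormalized whole numbers. The authors' table also holds FPKM by library, p-values and log2 fold changes, per the file headers, which name no test. GRCh38, DESeq2 1.38.3, StringTie 2.2.1 and HISAT2 2.0.4 stand in the submitters' processing notes without their roles; how reads were counted, on which annotation and with which strand setting was not stated. Libraries were grouped by title.

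The test across genes was edgeR 4.0.16 under R 4.3.3 on the counts (TMM, filterByExpr, which removed 0 genes, quasi-likelihood F test, Benjamini-Hochberg over all 14034 genes, threshold 0.05). The SE is the log2 fold change over the root of F. Of the rows, 12420 have an Ensembl ID, all found in GENCODE 29, and 1614 are new gene models. UTR motifs were searched in GENCODE 29 transcripts of the protein-coding type, a restriction chosen after a first search over all types had been seen. Neighbours are the 50 nearest tested genes with an ID, taken by order along the chromosome, in a window that shifts at chromosome ends. The fits were tested on simulated counts. Alternatives were DESeq2 1.42.0, limma 3.58.1 (voom, and on FPKM), other scalings and filters, a 1.5-fold test, a replicate block and leaving out each library. Text names the 10 genes, from each list the 2 genes with the smallest adjusted p in each direction, the 2 genes most like each CPEB gene, and genes that share exon bases; CNOT8 and TENT2 were added as partners. The genes and lists were chosen with earlier results of these data known. Some rows are not reported here.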

Additional observations from a re-analysis of the deposited data

How the results depend on the processing

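With the test against a 1.5-fold change, 493 genes were higher and 410 lower over the whole table, and of the 10 genes 0 were higher and 0 lower, with a smallest unadjusted p of 0.460. Under the other settings that used all libraries, 4 of the 10 were called higher and 2 lower, except 5 higher with total-count scaling, which added CNOT7; on FPKM CNOT7 was called and CPEB4 was not. Over all genes those settings called 4357 higher and 3134 lower (total count) and 3777 higher and 2679 lower (FPKM), against 3697 and 3726, and moved the median log2 fold change up by 0.05 and 0.06; CNOT7 gained and CNOT8, TOB2 and PABPN1 lost their calls in both. Leaving out each library gave 3 to 4 higher and 2 to 3 lower. In all, 146 of 159 values of the 10 genes kept their direction and their side of the threshold, 9 lost and 3 gained a call, and 1 turned its direction without a call (CNOT6L, 0.0633 on FPKM); CPEB3 has no value at 5 CPM. CPEB2, CNOT1, CNOT6 and PAN2 lost their calls in the 1.5-fold test alone. Of 621 values for the other named genes 81 lost and 3 gained a call, and 1 turned its direction without a call (TENT2, which ran from -0.0155 without control library 3 to 0.0518 without control library 2).

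Leaving out each library, the difference in log2 ratio ran from -0.25 to 0.23 for CNOT6L over CNOT6, from -0.200 to 0.0289 for PAN3 over PAN2 and from -0.236 to 0.0188 for CPEB3 over CPEB4, and FPKM gave 0.46, -0.10 and 0.0236 for these pairs; the cause was not tested. With the replicate number as a block, 3329 genes were higher and 3366 lower, and the calls of the 10 genes did not change. Deviations from the group mean correlated at -0.18, -0.06 and -0.15 between same-numbered libraries and at 0.01 to 0.14 between differently numbered ones. Deviations within a group of 3 constrain one another, so these values cannot settle whether the numbers pair the libraries. Over the 20 nearest neighbours in place of 50, the median log2 fold change was -0.22 around CPEB4. With the longest UTR taken over all transcript types, which was the first search made and was set aside after seeing the data, 5 of the 10 genes in place of 4 held GTAATGG, CNOT1 being added, as did 8.72% of 12377 genes. CPEB3, at 60 to 92 counts a library, is limited by depth.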

Other observations

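Over all tested genes with a 3′ UTR, 8378 held TTTTAT or TTTTAAT and 3926 held neither. With miR-885-5p, 26.9% of genes with an element were higher and 28.9% lower, and 29.1% of genes without one were higher and 25.5% lower. Among UTRs of 9 to 588 bases the median log2 fold change was -0.04 for 953 genes with an element and 0.02 for 2125 without. Among UTRs of 589 to 1390 bases it was -0.05 for 1894 genes with an element and 0.03 for 1183 without. Among UTRs of 1391 to 2761 bases it was -0.01 for 2573 genes with an element and 0.02 for 501 without. Among UTRs of at least 2762 bases it was 0.03 for 2958 genes with and 0.03 for 117 without. These values were looked at after the fold changes were known, and no test was made.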
